A study of Oncorhynchus mykiss with 9 samples.

Results

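The mitochondrial carrier family, SLC25, comprises the membrane proteins that pass metabolites, nucleotides and ions across the inner mitochondrial membrane. Its genes were followed here in the liver of rainbow trout (Oncorhynchus mykiss) under normal oxygen and under 2 forms of hypoxia. Genes were taken by name, under a rule set with earlier results of these data known. The rule took those whose symbol begins with slc25a and a number, without slc25a20 (the carnitine carrier). It added the ucp1, ucp2, ucp2a, ucp2b, ucp3, mtch1, mtch2 and ant2 symbols. This gave 113 genes of 42127 measured. RNA was sequenced from 9 liver libraries in 3 groups of 3, labelled control (CL), moderate hypoxia (Tm12L) and acute hypoxia (Ts12L). All fish were labelled wild-type. A 12 h exposure is named by the study in words that may apply to one hypoxia treatment or to both, while oxygen levels and the age of the fish are not given in the sources used here. Whether each library is from a different fish is not stated, so p-values measure the spread between these libraries, which may be technical.

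Carriers of this family share a fold with tandem repeats of a pair of membrane helices and usually work by exchange, taking one substrate in while another leaves. The ADP/ATP carriers and the phosphate carrier supply ATP synthesis with its substrates and release the ATP made. Other members move citrate, malate, amino acids, glutathione, coenzymes, pyrimidine nucleotides and iron, and the uncoupling proteins are relatives whose founding member leaks protons in mammalian brown fat. Liver uses the citrate carrier to bring out the carbon from which fatty acids and sterols are made, and amino acid carriers to feed nitrogen disposal and glucose production. Salmonids underwent a genome duplication of their own, so that many carriers have several near-identical gene copies. Values of single copies are uncertain, because how the authors divided reads between them is not given in the sources used here.

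Levels were deposited as FPKM, fragments scaled to transcript length and to the library's total, which allows comparison between genes of different length. Depth, read from the steps between low values, ran from 0.947 to 1.29 times that of control replicate 1. Of the 113 genes, 54 averaged 1 FPKM or more across all 9 libraries and were tested, and 59 fell below. Of these 59, 36 had means between 0.1 and 1 FPKM and 23 had means under 0.1, 6 of them at 0 in every library. The lowest mean of a tested member was 1.03 FPKM and the highest of a member left untested was 0.999. Among the 54 were 10 with a mean under 1 FPKM in at least 1 group, which passed the filter through their higher groups. Leaving out copy letters, the genes carry 48 symbols, of which 35 had several copies and 29 had at least 1 tested gene.

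A handful of genes supplied most of the family's RNA, and most of these genes did not pass the test against control as deposited. In control liver 10 members reached 10 FPKM or more and held 80.4% of the family's summed FPKM. Of these slc25a1b (ncbi_110537097) and slc25a36a (ncbi_110508892) passed in a comparison with control as deposited. Of all tested genes 7.79% passed in acute and 29.3% in moderate hypoxia. Median-of-ratios scaling sets the typical gene equal between libraries. Under it Slc25a5 (ncbi_110504971), Slc25a10 (ncbi_118936552), ucp2 (ncbi_110498444) and MTCH2 (ncbi_110506334) also passed, as lower in moderate hypoxia. Of all tested genes 15.3% then passed as lower there. The most abundant was Slc25a5 (ncbi_110504971), an ADP/ATP carrier, at 274, 319 and 248 FPKM in the 3 control libraries, 256, 282 and 250.2 in moderate hypoxia and 304, 267 and 266 in acute hypoxia. All 3 groups overlapped. Its copy slc25a5 (ncbi_110488772) stood at 101 ± 13.9 FPKM in control, 105 ± 4.37 in moderate hypoxia and 105 ± 3.86 in acute hypoxia (SD, n = 3). The phosphate carrier SLC25A3 (ncbi_110500174) stood at 84.9 ± 9.36, 92.4 ± 4.86 and 86.1 ± 1.77 FPKM in the same order. These 3 genes together made up 66.0% of the family's FPKM in control, 61.9% in moderate hypoxia and 66.2% in acute hypoxia. Their adjusted p in limma ranged from 0.351 to 0.998 over both comparisons with control as deposited.

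**Figure D1:**
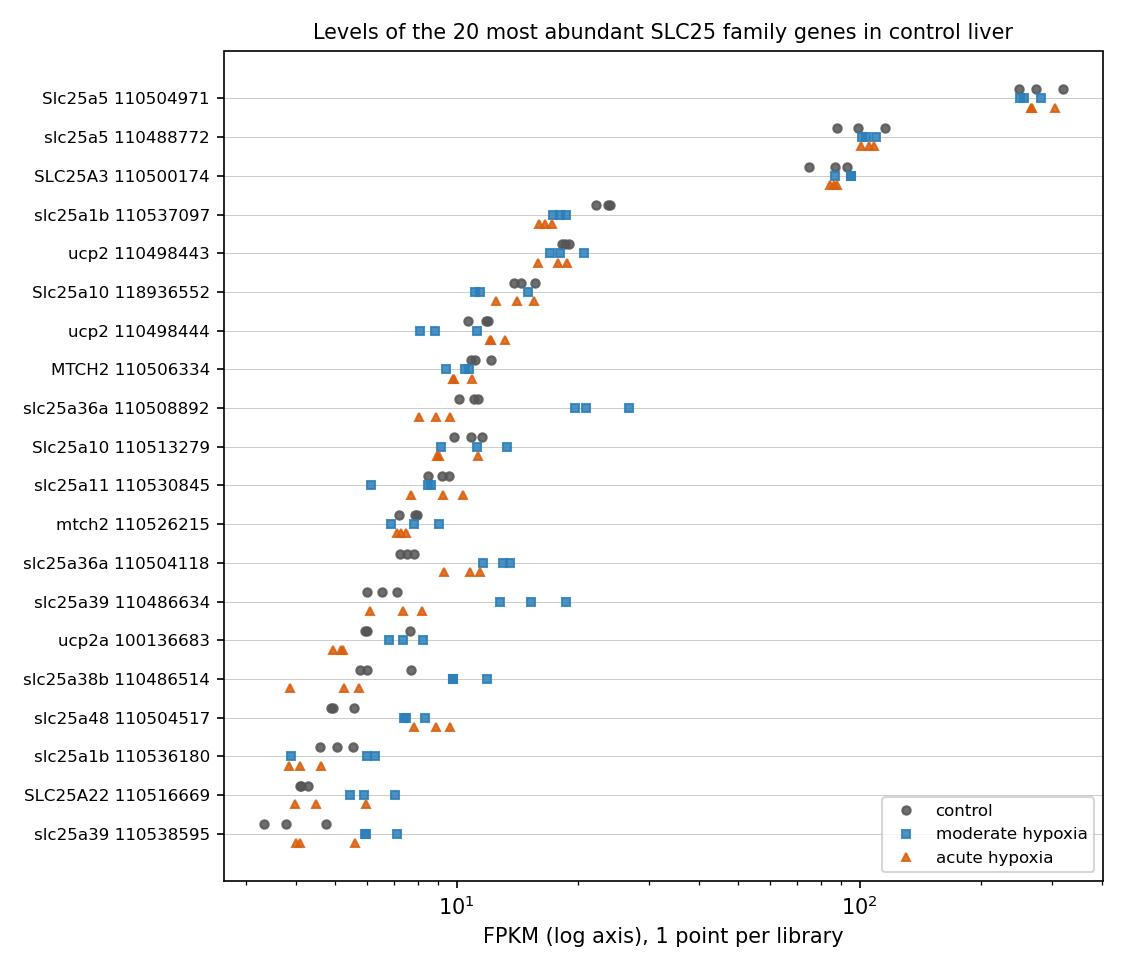
FPKM (log axis) of the 20 members with the highest control mean, 1 point per library, with control as circles, moderate hypoxia as squares and acute hypoxia as triangles. The ADP/ATP carriers and the phosphate carrier lie well above the rest with overlapping groups, while slc25a36a (ncbi_110508892) and slc25a39 (ncbi_110486634) have their moderate hypoxia libraries apart from control and acute hypoxia.

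In acute hypoxia against control, 11 of the 54 tested members passed the test (limma, Benjamini-Hochberg adjusted p under 0.05 over all 13803 tested genes), 8 higher and 3 lower. This is 20.4% of the members, beside 7.79% of all tested genes, 3.08% higher and 4.71% lower. Among the 10 members with a group mean under 1 FPKM, 4 of these acute calls arose, and among the 44 with every group mean at 1 FPKM or more, 7. The shares of all genes under the same 2 restrictions were not computed, so these counts cannot be set beside 7.79%. The groups did not overlap in 25 of the 54, against 28.3% of all tested genes. The members' median log2 difference was -0.01, beside -0.05 over all genes. In moderate hypoxia 16 members were higher and 2 lower, or 33.3%, beside 29.3% of all genes (24.3% higher and 5.02% lower), and the groups of 23 members did not overlap, against 45% of all genes. The moderate share was therefore near the background. All tested genes had a median log2 difference of 0.15 in moderate hypoxia, and changes there and against acute hypoxia (median -0.21) are given relative to that median, beside limma's adjusted p for the unshifted change. Changes in acute hypoxia against control are given unshifted unless said otherwise, and relative to the median in the figures, so the 2 sets of values are not on the same scale. Under median-of-ratios scaling, which sets the typical gene equal between libraries, the moderate counts became 9 higher and 9 lower, beside 11.4% and 15.3% of all genes, and those of acute hypoxia 8 and 4, beside 4.22% and 3.85%. Without the filter on low values 7 of the 11 acute calls held, with Slc25a44, slc25a34 (ncbi_110528406), slc25a40 and slc25a36a (ncbi_110504118) lost. Of the 18 moderate calls 13 then held, with SLC25A22, SLC25A17, Slc25a51, slc25a40 and slc25a25a lost. Both hypoxia groups were compared with the same 3 control libraries. Past the test in both were 7 members, in acute hypoxia alone 4 and in moderate hypoxia alone 11. A member past the test in one group and not the other is not thereby shown to differ between them, and the direct comparison of acute with moderate hypoxia is given separately.

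**Figure D2:**
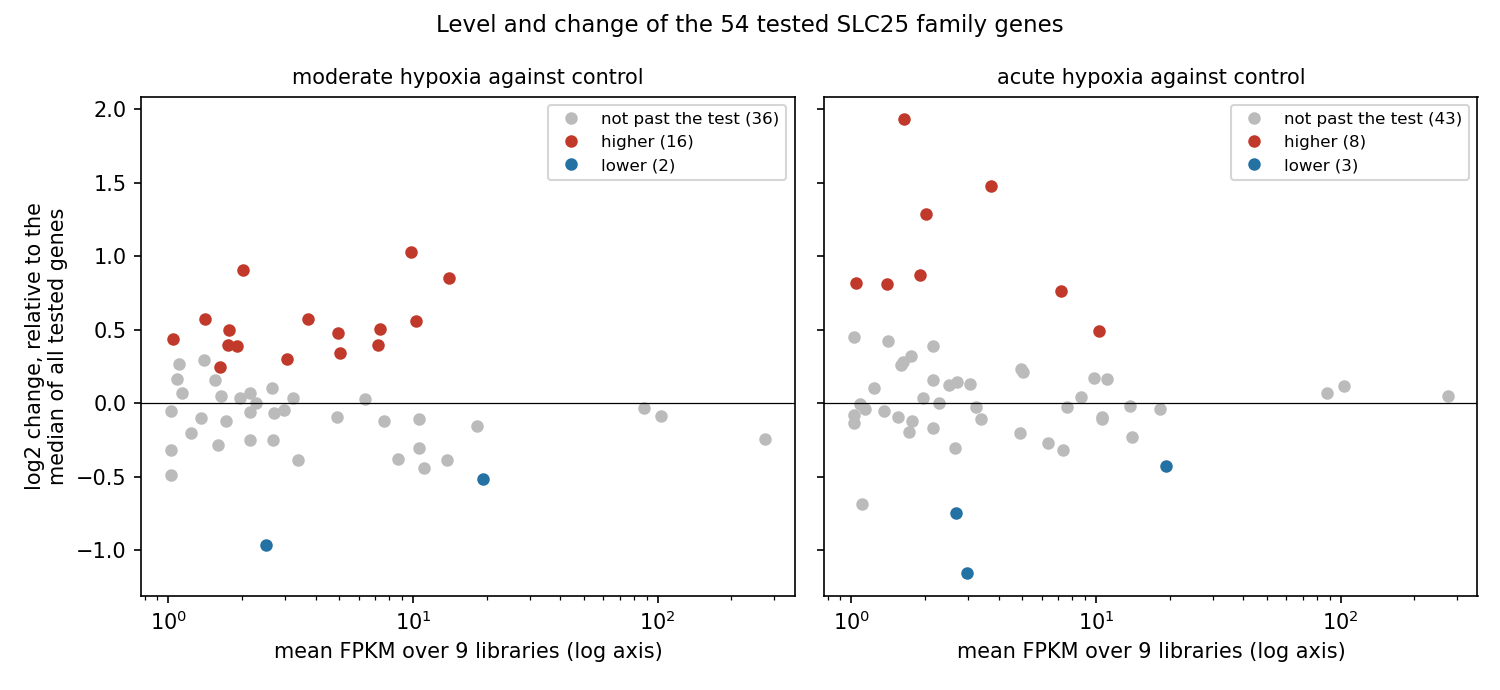
Log2 change after subtracting the all-gene median, against mean FPKM over 9 libraries (log axis) for the 54 tested members, in moderate hypoxia against control and in acute hypoxia against control, with red for higher, blue for lower and grey for members not past the test. Members past the test had means of 19.3 FPKM or less, and the 3 most abundant members lie near 0 in acute hypoxia.

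The ADP/ATP carriers, which exchange cytosolic ADP for mitochondrial ATP, numbered 5, of which 2 were tested and neither passed in any comparison as deposited. Their summed level was 381 ± 49.5 FPKM in control, 368 ± 17.4 in moderate hypoxia and 384 ± 18.2 in acute hypoxia. Under median-of-ratios scaling Slc25a5 (ncbi_110504971) passed as lower in moderate hypoxia (adjusted p = 0.0417), and both it (0.0225) and slc25a5 (ncbi_110488772; 0.0411) passed as higher in acute than in moderate hypoxia. The remaining members were scarce: Slc25a5 (ncbi_110497493) reached at most 0.238 FPKM and ncbi_110534108 was listed at 0 throughout. The muscle and heart form in mammals, slc25a4 (ncbi_110534290), was listed at 0, 0.103 and 0.248 FPKM in control, at 0 in all 3 moderate hypoxia libraries, and at 0.147, 0.144 and 0.177 in acute hypoxia. Summed muscle markers lay between 1.08 and 7.91 FPKM in the control libraries, between 1.54 and 4.3 in moderate hypoxia and between 4.42 and 6.71 in acute hypoxia, and 23 of their 24 genes had means under 1 FPKM. The part of such tissue in the slc25a4 values was not tested.

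Of the 4 phosphate carrier genes, which bring in phosphate for ATP synthesis, all were tested. Only 1 passed, higher in moderate hypoxia against control (25%, beside 24.3% of all tested genes). That gene, SLC25A3 (ncbi_110490190), was a minor copy at 1.11, 0.805 and 0.940 FPKM in control, 1.88, 1.84 and 1.98 in moderate hypoxia and 1.75, 1.18 and 1.26 in acute hypoxia. The moderate hypoxia libraries all lay above the control libraries, and the gene rose by 0.57 ± 0.14 relative to the median (log2, SE, limma adjusted p = 0.0034). With a control mean of 0.952 FPKM it passed the filter through its hypoxia groups. The leading copy held 94.2% of the carrier's FPKM, so that the sum, 89.7 ± 9.90 FPKM in control and 98.2 ± 4.55 in moderate hypoxia, overlapped between them.

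The ATP-Mg/phosphate carriers, which adjust the adenine nucleotide pool of the matrix and are activated by calcium, numbered 12, yet only slc25a25a (ncbi_110535888) was abundant enough to test. It stood at 2.96, 2.57 and 2.98 FPKM in control, 1.74, 0.793 and 1.88 in moderate hypoxia and 1.93, 2.88 and 4.76 in acute hypoxia. All moderate hypoxia libraries lay below control, while the acute hypoxia libraries lay on both sides of it. The gene fell by 0.96 ± 0.28 relative to the median in moderate hypoxia (adjusted p = 0.0485). It was no longer called without control replicate 1 (adjusted p = 0.117), 2 (0.0750) or 3 (0.109) and without moderate hypoxia replicate 1 (0.0695) or 2 (0.158). It is described as 1 of only 2 lower members, a choice made after its values were seen.

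Among uncoupling proteins and their relatives, 10 genes were measured and 5 tested, and none passed against control in either group as deposited. Of all tested genes 7.79% passed in acute and 29.3% in moderate hypoxia. Symbols ucp1 and ucp3 occurred in no gene of the table. The liver form was ucp2, with a leading copy (ncbi_110498443) at 18.6 ± 0.354 FPKM in control, 18.6 ± 1.88 in moderate hypoxia and 17.5 ± 1.47 in acute hypoxia. The copy ncbi_110498444 stood at 11.8, 10.7 and 12.0 FPKM in control, 8.09, 8.84 and 11.2 in moderate hypoxia and 12.1, 13.2 and 12.2 in acute hypoxia. Under median-of-ratios scaling it passed as lower in moderate hypoxia than in control (adjusted p = 0.0185). All its acute hypoxia libraries lay above those of moderate hypoxia, and acute exceeded moderate hypoxia by 0.61 relative to the median (adjusted p = 0.0262). That difference was lost without moderate hypoxia replicate 1 (adjusted p = 0.0995) or 2 (0.0728) and without acute hypoxia replicate 1 (0.0513) or 2 (0.0791). The gene ucp2a (ncbi_100136683) went the other way, at 8.24, 6.802 and 7.35 FPKM in moderate hypoxia and 5.15, 4.93 and 5.22 in acute hypoxia, with control libraries at 5.998, 7.66 and 5.92, above acute hypoxia and overlapping moderate hypoxia. Acute hypoxia lay lower than moderate hypoxia by -0.30 relative to the median (adjusted p = 0.00884 for the unshifted -0.50), and this call was lost under median-of-ratios scaling. The gene ucp2b averaged 1.18, 0.867 and 1.04 FPKM in control, moderate and acute hypoxia, and of the remaining ucp2 copies ncbi_110507746 reached at most 0.174 FPKM and ncbi_110533793 was listed at 0 throughout. Summed over the ucp2 genes the level was 37.8 FPKM in control, 36.4 in moderate hypoxia and 36.2 in acute hypoxia.

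The di- and tricarboxylate carriers held the most abundant member that changed. This was slc25a1b (ncbi_110537097), the citrate carrier that exports citrate for fatty acid and sterol synthesis. Its levels were 23.8, 24.0 and 22.1 FPKM in control, 18.1, 18.6 and 17.4 in moderate hypoxia and 17.3, 16.5 and 16.0 in acute hypoxia. Every library of both hypoxia groups lay below every control library. The gene fell by 0.47 ± 0.09 in acute hypoxia (log2, SE, limma adjusted p = 0.00732), or -0.43 relative to the median. In moderate hypoxia its unshifted change was -0.36 ± 0.09 (adjusted p = 0.00981), or -0.52 relative to the median. These were the only calls against control among the group's 7 tested of 9 genes. Both held under median-of-ratios scaling and on leaving out any single library. The other tested copies did not follow it in moderate hypoxia. The copy ncbi_110536180 averaged 5.05, 5.38 and 4.18 FPKM in control, moderate and acute hypoxia and passed in no comparison. A minor copy, slc25a1b (ncbi_110523827), averaged 1.12 FPKM in control and 0.472 in acute hypoxia and missed the threshold (adjusted p = 0.0523), passing under median-of-ratios scaling (0.0466). In moderate hypoxia this minor copy averaged 1.72 FPKM, with all libraries above control, and did not pass (adjusted p = 0.141). In acute hypoxia it was lower than in moderate hypoxia by -0.95 relative to the median (adjusted p = 0.00211), with libraries at 0.341, 0.601 and 0.473 against 2.50, 1.33 and 1.34 FPKM. Slc25a10, the dicarboxylate carrier that exchanges malate or succinate for phosphate, had copies at 14.7, 12.5 and 14.0 FPKM (ncbi_118936552) and 10.8, 11.2 and 9.76 FPKM (ncbi_110513279) in control, moderate and acute hypoxia, and neither passed against control. The copy ncbi_118936552 passed as lower in moderate hypoxia under median-of-ratios scaling (adjusted p = 0.0163), as did slc25a11, the oxoglutarate carrier of the malate-aspartate shuttle (0.0360), and slc25a21, a carrier of oxodicarboxylates in humans (0.0382). The group's summed level was 67.8 ± 0.913 FPKM in control, 59.8 ± 4.44 in moderate hypoxia and 57.5 ± 0.709 in acute hypoxia, and both hypoxia groups lay below control without overlap.

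Amino acid carriers changed upward against control wherever they passed. Of 25 genes 9 were tested. In acute hypoxia 3 were higher (33.3%, beside 3.08% of all tested genes) and in moderate hypoxia 4 (44.4%, beside 24.3%). None were lower, beside 4.71% of all tested genes in acute and 5.02% in moderate hypoxia. Under median-of-ratios scaling 2 were higher in moderate hypoxia, beside 11.4% of all genes. Of the acute calls, Slc25a29 (ncbi_110498176) and Slc25a44 (ncbi_110526738) had control means of 0.895 and 0.906 FPKM. Both passed the filter through their hypoxia groups, so the acute share rests largely on genes selected in part by their hypoxia levels. Slc25a29 (ncbi_110498176), a carrier of basic amino acids in humans, stood at 0.777, 0.591 and 1.32 FPKM in control, 2.30, 2.84 and 1.97 in moderate hypoxia and 2.08, 3.47 and 2.76 in acute hypoxia. All 6 hypoxia libraries exceeded all control libraries. The gene rose by 1.24 ± 0.21 in acute hypoxia, 3.10-fold in mean FPKM (adjusted p = 0.00534), and by 0.91 ± 0.21 relative to the median in moderate hypoxia (adjusted p = 0.00404). With a control mean under 1 FPKM it passed the filter through its hypoxia groups.

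The slc25a38 gene encodes a glycine carrier, needed for haem synthesis in yeast, zebrafish and humans. The calls of its 2 tested copies differed. The exact permutation test of the ratio between them could not go below p = 0.1. The copy slc25a38b (ncbi_110538473) stood at 1.16, 1.29 and 1.16 FPKM in control, 2.29, 1.90 and 1.78 in moderate hypoxia and 2.51, 2.32 and 2.72 in acute hypoxia, so that control lay lowest and acute hypoxia highest without overlap. It rose by 0.82 ± 0.11 in acute hypoxia, 2.09-fold (adjusted p = 0.00159), and by 0.39 relative to the median in moderate hypoxia (adjusted p = 0.00577). Between acute and moderate hypoxia this copy did not pass as deposited (adjusted p = 0.0805) and passed as higher under median-of-ratios scaling (0.00519). In that comparison the groups of 45.6% of all tested genes did not overlap. The more abundant slc25a38b (ncbi_110486514) stood at 5.76, 7.72 and 5.98 FPKM in control, 11.9, 9.78 and 9.81 in moderate hypoxia and 3.85, 5.74 and 5.25 in acute hypoxia. It was high in moderate hypoxia alone, rising by 0.50 relative to the median (adjusted p = 0.0102, and 0.0534 under median-of-ratios scaling), and was lower in acute than in moderate hypoxia by -0.82 relative to the median (adjusted p = 0.00102). Its acute hypoxia libraries did not pass against control.

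Other amino acid calls were weaker. Slc25a44 (ncbi_110526738), which carries branched-chain amino acids in mice, averaged 0.906 FPKM in control and 1.89 in acute hypoxia, and rose by 0.76 ± 0.21 (limma adjusted p = 0.0490). This gene too passed the filter through its hypoxia groups. The call was lost without control replicate 1 (0.0857), 2 (0.145) or 3 (0.0527) and without acute hypoxia replicate 1 (0.135) or 2 (0.169), with a pseudocount of 0.1 and in the other quantification. SLC25A22 (ncbi_110516669), a glutamate carrier, averaged 4.16 FPKM in control and 6.11 in moderate hypoxia and rose by 0.34 relative to the median (adjusted p = 0.0229). It was lost under median-of-ratios scaling, without control replicate 1 (0.0682) or 2 (0.0554) and without moderate hypoxia replicate 1 (0.0881). Copies of slc25a13, the aspartate/glutamate carrier typical of mammalian liver, were listed at or near 0. Summed amino acid carriers came to 23.5 ± 1.39 FPKM in control, 34.6 ± 2.57 in moderate hypoxia and 27.5 ± 2.15 in acute hypoxia, with no overlap between groups. In moderate hypoxia this sum was 1.47 times control as deposited and 1.29 times under median-of-ratios scaling. Under that scaling acute and moderate hypoxia overlapped, with a ratio of 0.947 between them.

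Cofactor and nucleotide carriers, the role with the most tested genes, held the most calls. Of 24 genes 14 were tested, 8 were higher in moderate hypoxia with none lower, and 3 were higher and 1 lower in acute hypoxia. Of all tested genes 24.3% were higher and 5.02% lower in moderate hypoxia, and 3.08% and 4.71% in acute hypoxia. Under median-of-ratios scaling the moderate counts were 4 higher and 1 lower, beside 11.4% and 15.3% of all genes. The lower gene there was SLC25A17 (ncbi_110486792, limma adjusted p = 0.0488). The gene slc25a33 (ncbi_110532819), a carrier of pyrimidine nucleotides in humans, stood at 1.89, 1.80 and 1.89 FPKM in control, 3.35, 3.69 and 3.21 in moderate hypoxia and 6.36, 5.89 and 5.33 in acute hypoxia. The 3 groups were fully separate, in the order control, moderate, acute. It rose by 1.43 ± 0.10 in acute hypoxia, 3.15-fold in mean FPKM (adjusted p = 2.2e-05), by 0.57 ± 0.10 relative to the median in moderate hypoxia (adjusted p = 0.000718), and was higher in acute than in moderate hypoxia by 0.91 relative to the median (adjusted p = 0.000779). All 3 calls held under median-of-ratios scaling.

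The related slc25a36a, also a pyrimidine nucleotide carrier in humans, had 4 tested copies with different patterns. The leading copy (ncbi_110508892) stood at 11.1, 11.3 and 10.15 FPKM in control, 26.8, 20.9 and 19.6 in moderate hypoxia and 8.91, 9.62 and 8.05 in acute hypoxia. It was high in moderate hypoxia alone, rose there by 0.85 ± 0.12 relative to the median (adjusted p = 0.000403), and was lower in acute than in moderate hypoxia by -1.08 relative to the median (adjusted p = 0.000138). The copy ncbi_110504118 stood at 7.86, 7.25 and 7.55 FPKM in control, 13.6, 11.6 and 13.0 in moderate hypoxia and 10.8, 11.4 and 9.28 in acute hypoxia. Both hypoxia groups lay above control without overlap, by 0.56 ± 0.11 relative to the median in moderate hypoxia (adjusted p = 0.000959) and by 0.45 ± 0.11 in acute hypoxia (adjusted p = 0.0279). The acute call was lost without control replicate 1 (0.0779), 2 (0.0847) or 3 (0.0667) and without acute hypoxia replicate 1 (0.0787) or 2 (0.104). The copy ncbi_110530143 stood at 3.38, 3.13 and 4.45 FPKM in control, 3.92, 4.06 and 3.82 in moderate hypoxia and 1.65, 1.10 and 1.17 in acute hypoxia. Its acute hypoxia libraries lay below all others, and it fell by 1.20 ± 0.15 against control (adjusted p = 0.000688). The copy ncbi_110507936, at 2.22 FPKM in control and 2.52 in moderate hypoxia, passed in no comparison. Summed over copies, slc25a36a stood at 24.2 ± 0.285 FPKM in control, 41.6 ± 4.99 in moderate hypoxia and 22.8 ± 2.01 in acute hypoxia.

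The slc25a39 gene encodes the glutathione carrier of human mitochondria. Its leading copy (ncbi_110486634) stood at 6.51, 7.10 and 5.99 FPKM in control, 15.3, 12.8 and 18.7 in moderate hypoxia and 6.09, 8.18 and 7.34 in acute hypoxia. Moderate hypoxia lay above both other groups, while acute hypoxia overlapped control. The gene rose 2.39-fold in mean FPKM, by 1.03 ± 0.15 relative to the median (adjusted p = 0.000427), and was lower in acute than in moderate hypoxia by -0.85 relative to the median (adjusted p = 0.000637). The second copy (ncbi_110538595) averaged 3.94 FPKM in control and 6.35 in moderate hypoxia (0.48 relative to the median, adjusted p = 0.0111), a call lost under median-of-ratios scaling (0.0831). The paralogue slc25a40 (ncbi_110535857) averaged 0.598 FPKM in control, 1.15 in moderate hypoxia and 1.38 in acute hypoxia and passed in both (limma adjusted p = 0.0353 and 0.0297). With a control mean under 1 FPKM it passed the filter through its hypoxia groups. The acute call was lost without control replicate 1 (0.0850) or 3 (0.0919), and the moderate call under median-of-ratios scaling, without control replicate 1 (0.0780) or 3 (0.117) and without moderate hypoxia replicate 1 (0.0981). The remaining moderate calls of this role were SLC25A17 (ncbi_110538753), a peroxisomal carrier of coenzymes in humans, and Slc25a51 (ncbi_110504909), the NAD carrier of human mitochondria. Both were lost under median-of-ratios scaling and without single libraries: SLC25A17 without control replicate 1 (0.116) or 3 (0.104) and moderate hypoxia replicate 1 (0.127) or 2 (0.0707), and Slc25a51 without control replicate 1 (0.0957), 2 (0.0762) or 3 (0.127) and moderate hypoxia replicate 2 (0.0859) or 3 (0.155). The role's summed level was 51.4 ± 1.99 FPKM in control, 85.4 ± 6.35 in moderate hypoxia and 57.0 ± 3.83 in acute hypoxia. Moderate hypoxia was 1.66 times control as deposited and 1.45 times under median-of-ratios scaling.

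Iron carriers, the mitoferrins, supply iron for haem and iron-sulphur clusters. Of 6 genes 4 were tested, all copies of slc25a28, and 1 passed against control, higher in moderate hypoxia (25%, beside 24.3% of all tested genes). That copy (ncbi_110499341) stood at 2.64, 2.82 and 2.35 FPKM in control, 3.37, 3.90 and 3.99 in moderate hypoxia and 2.87, 2.596 and 2.88 in acute hypoxia. Moderate hypoxia lay above control and acute hypoxia, with a rise of 0.30 relative to the median (adjusted p = 0.00985) that was lost under median-of-ratios scaling (0.131). Red cells of fish are nucleated and keep mitochondria. Summed red cell markers lay between 1679 and 2053 FPKM in the control libraries, between 1274 and 2115 in moderate hypoxia and between 1162 and 1895 in acute hypoxia. Of their 24 tested genes 0 passed against control, beside 7.79% of all tested genes in acute and 29.3% in moderate hypoxia. The part of red cells in the carriers of haem precursors and iron was not tested.

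The outer membrane relatives, MTCH1, MTCH2 and slc25a46, which insert proteins into the outer membrane or shape it, gave no call among 4 tested of 6 genes in any comparison as deposited. Of all tested genes 7.79% passed in acute hypoxia, 29.3% in moderate hypoxia and 32.4% in acute against moderate hypoxia. MTCH2 (ncbi_110506334) passed as lower in moderate hypoxia under median-of-ratios scaling (adjusted p = 0.0164).

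The role grouped as other carriers held the steepest rise. One copy of slc25a48 (ncbi_110489205), a choline carrier in mice and humans, stood at 0.699, 0.321 and 0.819 FPKM in control, 0.774, 0.668 and 0.834 in moderate hypoxia and 3.36, 4.13 and 3.16 in acute hypoxia. Control and moderate hypoxia overlapped and every acute hypoxia library lay far above them. The gene rose by 1.88 ± 0.18 in acute hypoxia, 5.79-fold in mean FPKM (adjusted p = 0.000139), and exceeded moderate hypoxia by 1.89 relative to the median (adjusted p = 0.000174); it passed the filter through acute hypoxia. The second copy (ncbi_110504517) stood at 4.93, 5.55 and 4.89 FPKM in control, 8.36, 7.39 and 7.49 in moderate hypoxia and 9.61, 7.84 and 8.86 in acute hypoxia. Both hypoxia groups lay above control, with rises of 0.72 ± 0.11 in acute hypoxia (adjusted p = 0.00257) and 0.40 relative to the median in moderate hypoxia (adjusted p = 0.00372). Summed over both copies, slc25a48 averaged 5.73 FPKM in control, 8.50 in moderate hypoxia and 12.3 in acute hypoxia.

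Both copies of slc25a34, a carrier whose substrate is unsettled, were lower in acute than in moderate hypoxia, and they differed in their calls against control. The copy ncbi_110528406 stood at 3.09, 4.29 and 2.54 FPKM in control, 3.43, 2.31 and 3.39 in moderate hypoxia and 1.86, 1.66 and 1.46 in acute hypoxia. Its acute hypoxia libraries lay below all others, it was lower in acute than in moderate hypoxia by -0.50 relative to the median (adjusted p = 0.0139; 0.0603 under median-of-ratios scaling and 0.0585 without moderate hypoxia replicate 1), and it fell by 0.80 ± 0.18 against control (adjusted p = 0.0228). The call against control was lost without control replicate 1 (0.0661) or 2 (0.0733) and without acute hypoxia replicate 2 (0.0672) or 3 (0.0681). The copy ncbi_110494966 stood at 1.41, 1.47 and 1.499 FPKM in control, 2.44, 3.13 and 2.26 in moderate hypoxia and 1.15, 1.40 and 1.20 in acute hypoxia. It was high in moderate hypoxia alone, by 0.50 relative to the median (adjusted p = 0.00357), and lower in acute than in moderate hypoxia by -0.61 relative to the median (adjusted p = 0.00101 for the unshifted -0.82). The log2 ratio of the copies averaged 0.93 in control, 0.18 in moderate hypoxia and 0.30 in acute hypoxia, and the hypoxia groups overlapped in it (p = 0.8, exact permutation). Summed over the role, levels were 13.4 ± 1.11 FPKM in control, 18.2 ± 1.58 in moderate hypoxia and 17.9 ± 0.287 in acute hypoxia.

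**Figure D3:**
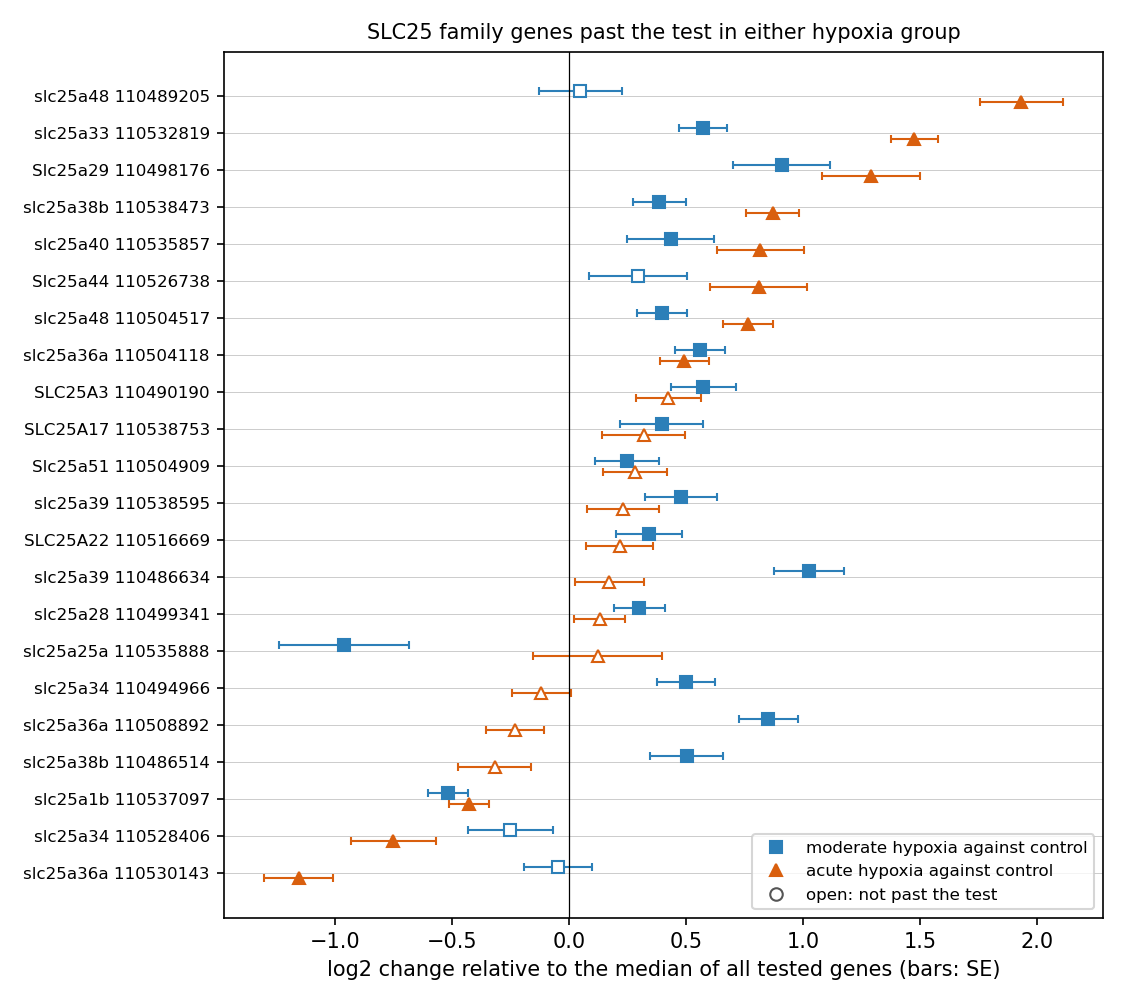
Log2 change after subtracting the all-gene median, with SE bars, for the 22 members past the test in acute or moderate hypoxia against control, squares for moderate and triangles for acute hypoxia, open where the test was not passed. The copy slc25a48 ncbi_110489205 and slc25a33 lead in acute hypoxia, slc25a39 ncbi_110486634 and Slc25a29 in moderate hypoxia, and slc25a1b lies below 0 in both.

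**Figure D4:**
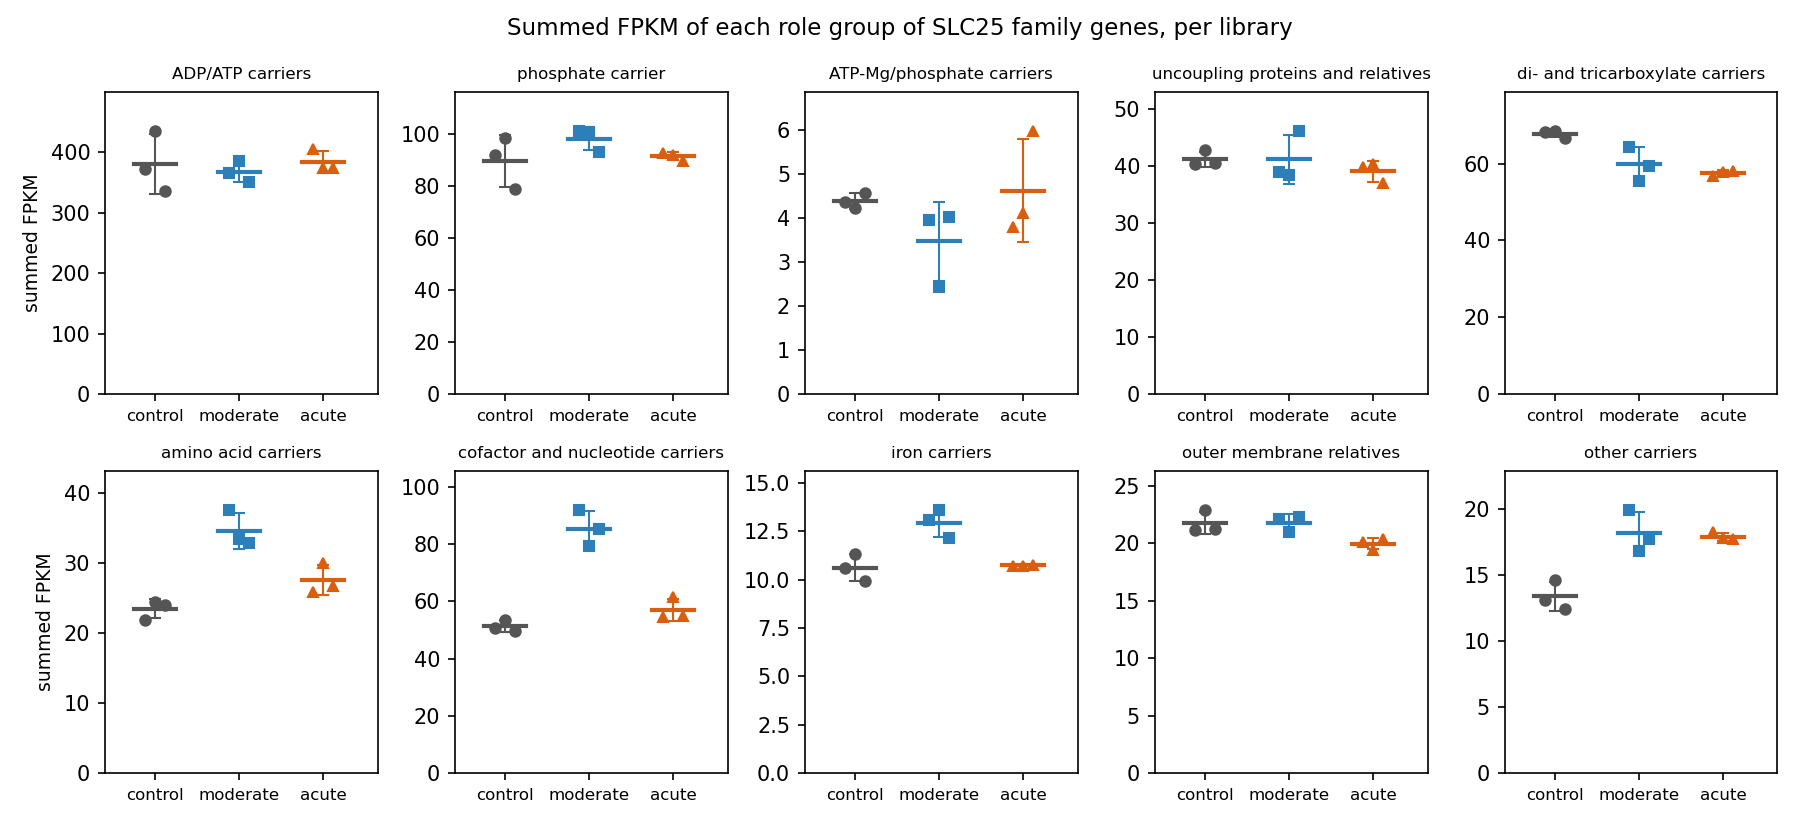
Summed FPKM per library of each role group, 1 panel per role with its own axis from 0; points are libraries, lines are means and bars are SD (n = 3). The ADP/ATP carrier sums overlap between all groups as deposited, the cofactor and nucleotide carriers stand highest in moderate hypoxia at 85.4 ± 6.35 FPKM, and the di- and tricarboxylate carriers lie below control in both hypoxia groups.

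Acute and moderate hypoxia were also compared directly. Of the 54 tested members 4 were higher in acute hypoxia and 12 lower, or 29.6%, beside 32.4% of all tested genes (4.3% higher and 28.1% lower), and 25 members did not overlap, against 45.6% of all genes. Here too the members' share was near the background, and under median-of-ratios scaling the counts turned to 12 higher and 6 lower, beside 14.6% and 9.88% of all genes. Of the 16 calls, 10 held under that scaling. The steepest relative to the median were the higher slc25a48 (ncbi_110489205) and slc25a25a (1.09, adjusted p = 0.0318), followed by slc25a33, and the lower slc25a36a copies ncbi_110508892 and ncbi_110530143, the last by -1.10 relative to the median (adjusted p = 0.000224). The call of slc25a25a was lost without moderate hypoxia replicate 1 (0.0521) or 2 (0.104) and without acute hypoxia replicate 2 (0.0646) or 3 (0.103). Further lower calls were less firm and were all lost under median-of-ratios scaling, and are named after their values were seen. The slc25a28 copy ncbi_110499341 was lower by -0.17 relative to the median (adjusted p = 0.0228), lost without moderate hypoxia replicate 2 (0.0623) or 3 (0.0699) or acute hypoxia replicate 2 (0.0755). The uncoupling protein relative slc25a27 was lower by -0.40 (adjusted p = 0.0354), lost without moderate hypoxia replicate 2 (0.0617) or 3 (0.115) or acute hypoxia replicate 1 (0.0898), 2 (0.0748) or 3 (0.0621). The slc25a39 copy ncbi_110538595 was lower by -0.24 (adjusted p = 0.0450), lost without moderate hypoxia replicate 1 (0.151), 2 (0.0642) or 3 (0.0676) or acute hypoxia replicate 1 (0.136) or 2 (0.132). The branched-chain amino acid carrier slc25a44a was lower by -0.25 (adjusted p = 0.0463), lost without moderate hypoxia replicate 1 (0.132) or 2 (0.111) or acute hypoxia replicate 1 (0.0717) or 2 (0.163). The whole family summed to 705 ± 65.8 FPKM in control, 743 ± 17.5 in moderate hypoxia and 710 ± 16.6 in acute hypoxia, or 0.131%, 0.140% and 0.135% of each library's FPKM.

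Divergence between copies was compared in 37 pairs of tested copies through the log2 ratio of the 2 copies in each library, by an exact two-sided permutation test of 3 against 3 libraries, which cannot go below p = 0.1. That smallest p was reached by 14 pairs in acute hypoxia against control, 15 in moderate hypoxia against control and 14 in acute against moderate hypoxia, and no pair could pass 0.05. Adjusted over the pairs, the smallest values were 0.264, 0.247 and 0.264. A p of 0.1 arises where the ratios of the groups do not overlap. For single genes the groups did not overlap in 28.3%, 45% and 45.6% of all tested genes, in the same order. The share over all copy pairs was not computed. Where a carrier had more than 2 tested copies, its pairs share copies, so the 37 are not independent. The widest shift in the slc25a36a family was that of ncbi_110504118 over ncbi_110530143, whose mean log2 ratio was 0.97 in control, 1.58 in moderate hypoxia and 2.62 in acute hypoxia. The leading copy over ncbi_110504118 stood at 0.49 in control, 0.78 in moderate hypoxia and -0.23 in acute hypoxia, so that the order of these copies turned. For slc25a38b the ratio of ncbi_110486514 to ncbi_110538473 was 2.03 in control, 2.14 in moderate hypoxia and 0.84 in acute hypoxia. For slc25a48 the ratio of ncbi_110504517 to ncbi_110489205 was 2.36, 2.71 and 1.20 in the same order. In both of these genes the acute hypoxia libraries stood apart from control (p = 0.1, exact permutation), while moderate hypoxia did not (p = 0.4, exact permutation). The slc25a39 ratio moved in moderate hypoxia instead, from 0.67 in control to 1.22, with 0.61 in acute hypoxia.

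**Figure D5:**
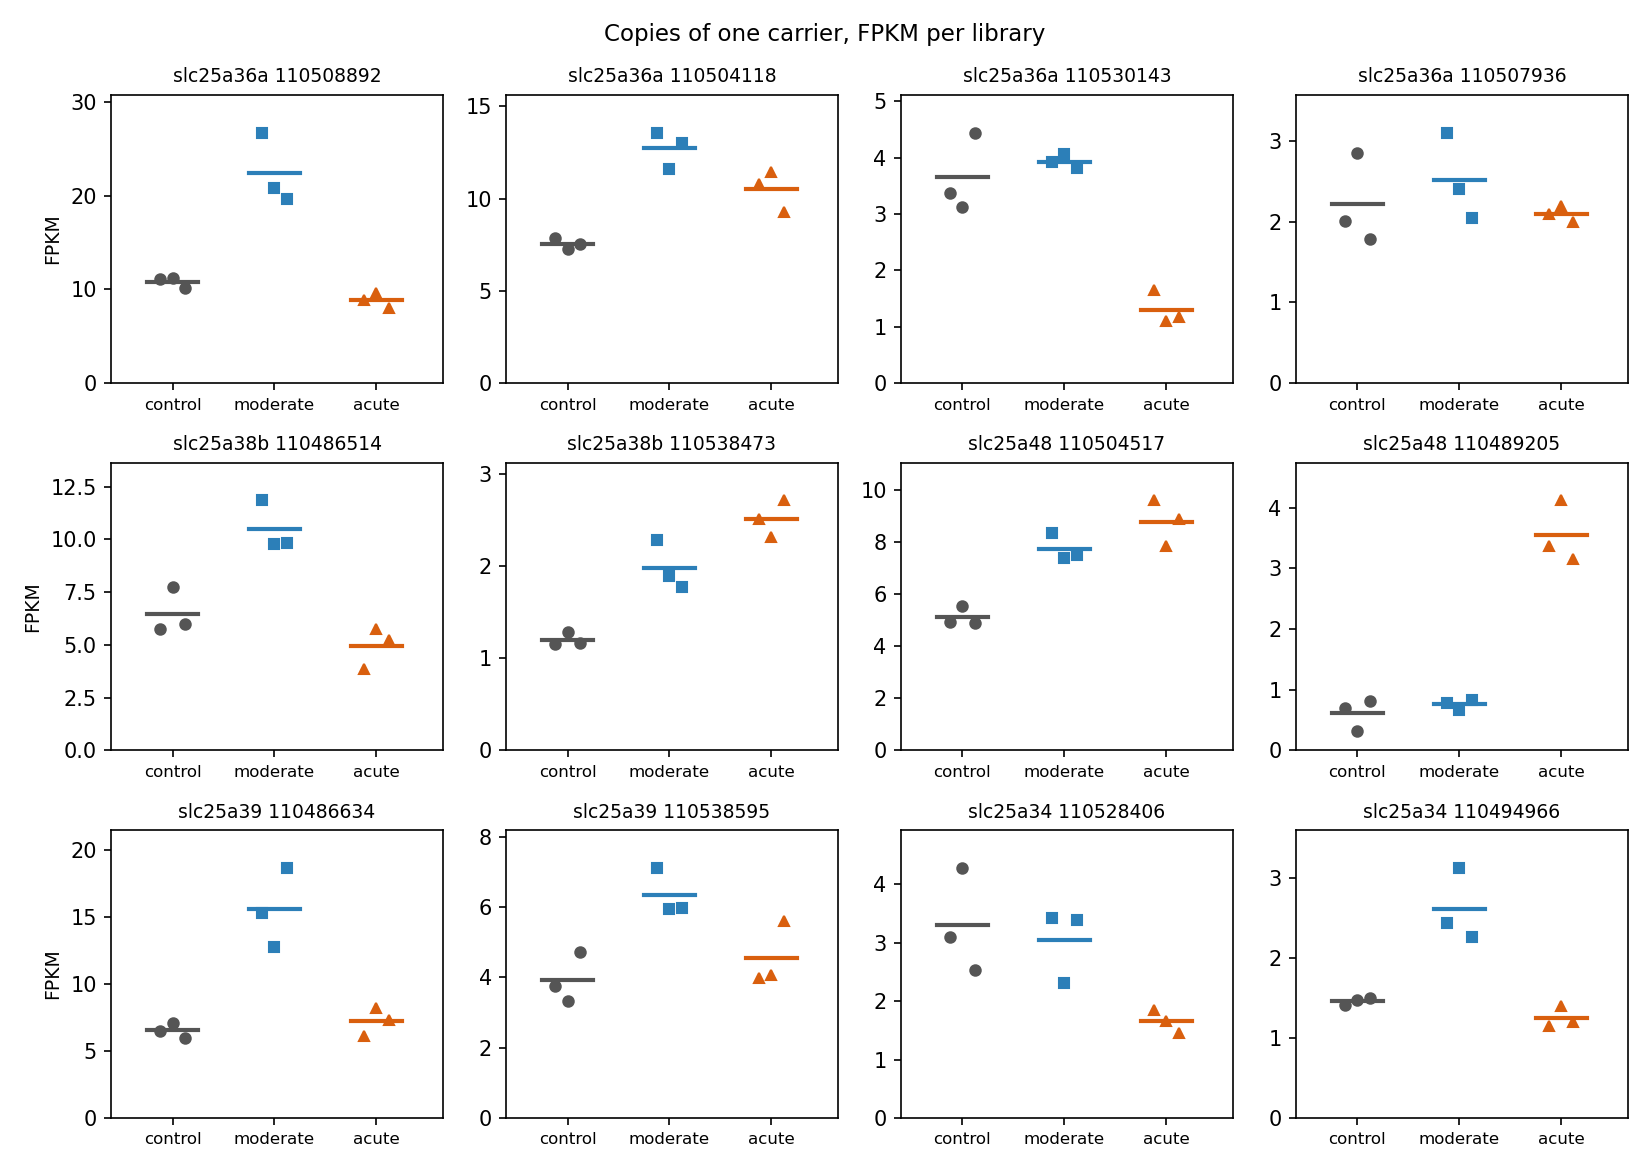
FPKM per library of the tested copies of slc25a36a, slc25a38b, slc25a48, slc25a39 and slc25a34, with control as circles, moderate hypoxia as squares, acute hypoxia as triangles and lines at the means; each panel has its own axis from 0. Copies of the same carrier stand apart in different groups, such as slc25a36a ncbi_110508892 in moderate hypoxia and ncbi_110530143 in acute hypoxia.

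Some members neighbour each other in the RefSeq annotation (USDA_OmykA_1.1). Each abundant Slc25a5 copy lies beside a slc25a43 gene with no gene between them, and Slc25a29 (ncbi_110498176) lies beside slc25a47b. The slc25a43 and slc25a47 genes had means under 1 FPKM and were not tested, although their neighbours include the most abundant member and one that rose. The gene ucp2a likewise lies beside the ucp2 copy listed at 0.

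Other genes of mitochondrial transport, a list of 82 genes with 61 tested, gave 1 higher and 2 lower in acute hypoxia (4.92%, beside 7.79% of all genes) and 4 higher and 4 lower in moderate hypoxia (13.1%, beside 29.3%). Under median-of-ratios scaling the counts were 3 higher and 1 lower in acute hypoxia, beside 4.22% and 3.85% of all genes. In moderate hypoxia they were 4 higher and 10 lower, beside 11.4% and 15.3% of all genes. VDAC2 (ncbi_110499468), a pore of the outer membrane, averaged 26.7 ± 2.9 FPKM in control and 37.1 ± 1.94 in acute hypoxia (0.47, adjusted p = 0.0418). In moderate hypoxia mcu (ncbi_110492808), the pore of the calcium uniporter, averaged 3.77 FPKM against 2.05 in control (adjusted p = 0.00668) and its inhibitory paralogue MCUB 5.89 against 3.39 (adjusted p = 0.00154), while timm8a (ncbi_110503767), a protein import chaperone, averaged 1.69 against 3.25 (adjusted p = 0.00133).

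The liver label was met by hepatocyte markers, whose sums lay between 28684 and 29252 FPKM in the control libraries, between 25407 and 27623 in moderate hypoxia and between 29094 and 31792 in acute hypoxia, with 1 of 21 tested genes higher and 5 lower in moderate hypoxia, beside 24.3% and 5.02% of all genes. Under median-of-ratios scaling 0 of these 21 were higher and 12 lower, beside 11.4% and 15.3% of all genes. The part of hepatocytes in the members' lower calls under that scaling was not tested. Summed endothelial markers ranged from 15.6 to 16.3, 19.2 to 23.4 and 16.0 to 16.3 FPKM in control, moderate and acute hypoxia, and markers of stellate cells and fibroblasts from 57.8 to 75.9, 81.9 to 101 and 64.1 to 95.9. As deposited, endothelial markers thus stood highest in moderate hypoxia, as did several members, and those of stellate cells and fibroblasts lay above control there. Of the tested genes, 2 of 7 endothelial and 2 of 10 stellate cell and fibroblast markers were higher there, and 0 lower. This stands beside 24.3% and 5.02% of all genes. Under median-of-ratios scaling the endothelial counts were 2 higher and 0 lower, and those of stellate cells and fibroblasts 0 and 1. Of all genes 11.4% and 15.3% then passed as higher and lower. The part of these cells in the members' values was not tested. In bulk liver, fewer cells of a type and less RNA per cell cannot be told apart. Summed exocrine pancreas markers lay between 3.39 and 56.5 FPKM in the control libraries, between 9.38 and 95.2 in moderate hypoxia and between 23.1 and 77.2 in acute hypoxia.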

How the data were processed

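Gene levels are FPKM, per the file headers, deposited by the authors for 3 pairs of groups stacked in 1 file, beside log2 fold changes and p-values of the authors that were not used here. Per the submitters' processing notes, tools included Bowtie2 2.2.8 and TopHat2 2.1.1; build, annotation and counting tool are not given in the sources used here. Of the stacked tables, that pairing moderate hypoxia with control gave both of these groups, and the one pairing acute with moderate hypoxia, whose moderate values are identical, gave acute hypoxia; acute levels are therefore set beside control across tables. The remaining table was quantified otherwise (39.8% of control replicate 1 values identical) and served as an alternative. Read totals are unknown, so no counting interval is given. The 13803 genes averaging 1 FPKM or more across 9 libraries were fitted as log2(FPKM + 0.5) with limma 3.58.1 in R 4.3.3, all groups in 1 fit with a mean trend, and called at a Benjamini-Hochberg adjusted p under 0.05. The pseudocount of 0.5 understates changes of low genes. The fit was tested on simulated data in which all genes had the same spread, taken from the control libraries, and no group was shifted as a whole. These settings differ from the real data, so the simulation does not bear on single calls. A member is higher or lower by this test alone. Single ratios were compared by exact permutation.

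Members and lists were chosen with earlier results of these data known; the role of slc25a55 was assigned after seeing the data. Named are members past the test (up to 15 per comparison with control and 8 in acute against moderate hypoxia), all uncoupling and ADP/ATP carrier genes, the 10 most abundant members, other copies of these, and at most 6 other transport genes; part of those selected is described. All 113 members matched the RefSeq table (USDA_OmykA_1.1) by gene ID, which gave names and neighbours only. No sequences are shown, and no coordinates, since the build of the files is not known. Alternatives were other pseudocounts (0.1 and 1), median-of-ratios scaling, a filter of 5 FPKM or none, no mean trend, the 2 compared groups alone, a replicate block, leaving out single libraries, and the other quantification.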

Additional observations from a re-analysis of the deposited data

How the results depend on the processing

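No call of a single member changed direction under an alternative, but ratios of some role sums did under median-of-ratios scaling: in moderate hypoxia over control the phosphate carriers went from 1.10 to 0.961, and in acute over moderate hypoxia the phosphate carriers from 0.932 to 1.11, the di- and tricarboxylate carriers from 0.962 to 1.15, the uncoupling proteins and relatives from 0.949 to 1.13, the outer membrane relatives from 0.917 to 1.09 and the other carriers from 0.986 to 1.17. Counts of members past the test in acute hypoxia (8 higher, 3 lower) became 2 and 1 with a filter of 5 FPKM, which tests fewer genes, and 6 and 3 with the other quantification. In these settings 13.6% and 7.49% of all tested genes passed. Member counts in moderate hypoxia (16 and 2) became 6 and 1 with that filter and 9 and 9 under median-of-ratios scaling, beside 29.9% and 26.7% of all genes. The moderate lower count was 1 with a pseudocount of 1, without a filter and without a mean trend. Member counts in acute against moderate hypoxia (4 and 12) became 1 and 4 with the filter and 12 and 6 under median-of-ratios scaling, beside 34.4% and 24.4% of all genes. The cause of these shifts in counts was not tested. Leaving out single libraries gave 5 to 7 higher and 2 to 3 lower in acute hypoxia, 12 to 15 and 1 to 3 in moderate hypoxia, and 2 to 4 and 8 to 11 between them. Of all genes tested in these fits 3.31% to 6.28%, 19.1% to 25.2% and 21.7% to 28.2% passed, in the same order. The acute higher count was 5 without control replicate 1 or acute hypoxia replicate 2, the moderate lower count was 1 without any single control replicate or moderate hypoxia replicate 1 or 2, and the higher count of acute against moderate hypoxia was 2 without moderate or acute hypoxia replicate 2. Calls that held in every such fit numbered 7 of 11 in acute hypoxia, 13 of 18 in moderate hypoxia and 9 of 16 between them.

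Replicate numbers did not pair the libraries: deviations of same-numbered libraries correlated between -0.13 and 0.08. With the replicate number as a block, 6 members were higher and 3 lower in acute hypoxia, 15 and 2 in moderate hypoxia, and 4 and 11 in acute against moderate hypoxia. The shares of all tested genes past the test with the block were 5.75%, 25.8% and 28.9% in the same order. With 3 libraries a group and FPKM only, changes of members near 1 FPKM are the least certain.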

Other observations

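Members under the filter of 1 FPKM were tested in a fit without the filter, where they rest on low values. Of these 59 members, 6 were at 0 in every library and were not fitted. In that fit 1.97% of all genes passed in acute hypoxia, 11.6% in moderate hypoxia and 13.0% in acute against moderate hypoxia. All members under the filter that passed are named here, and no excess over these shares is claimed. In acute hypoxia SLC25A29 (ncbi_110529842), another gene of the basic amino acid carrier, averaged 0.187 FPKM in control and 0.600 in acute hypoxia (log2 difference 0.68 ± 0.13, limma adjusted p = 0.0407). In moderate hypoxia the same gene averaged 0.687 FPKM (adjusted p = 0.00787). Also higher in moderate hypoxia were Slc25a16 (ncbi_110530770), a carrier linked to coenzyme A in yeast, at 0.472 FPKM in control and 1.05 in moderate hypoxia (adjusted p = 0.00968), slc25a14 (ncbi_110533715), a relative of the uncoupling proteins, at 0.407 and 0.972 FPKM (adjusted p = 0.0147), slc25a55a at 0.532 and 1.14 FPKM (adjusted p = 0.0413), and slc25a40 (ncbi_110507764) at 0.253 and 0.566 FPKM (adjusted p = 0.0495). In acute against moderate hypoxia Slc25a16 (ncbi_110530770) and Slc25a14 (ncbi_110537406) were lower (adjusted p = 0.0167 and 0.0169). Summed over the 4 slc25a29 genes, the level averaged 2.52 FPKM in control, 4.87 in moderate hypoxia and 5.60 in acute hypoxia.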
